A study of Mus musculus with 8 samples.

Results

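Cytokine receptors are the surface proteins through which a B cell reads the helper and antiviral cytokines around it. Here 10 receptor genes of mouse follicular B cells were followed at the mRNA level, taken by gene symbol from the 43629 genes of the count table: Il4ra, Il21r, Il2rg, Il10ra, Il6ra, Il27ra, Ifngr1, Ifngr2, Ifnar1 and Ifnar2. All 10 passed the filter on low counts that left 13035 genes for testing. RNA came from 8 libraries of splenic B cells that had been enriched with a kit and then sorted on B220, CD93, CD21 and CD23. The 4 control libraries carried the allele Rosa26GFPZFP36L1, and the other 4, labelled GFP-ZFP36L1, carried that allele together with CD23cre/+, a Cre driven from a gene of mature B cells. Since every library carried the allele, the comparison is of Cre-positive with Cre-negative cells, and effects of Cre and of the GFP-tagged protein cannot be told apart. ZFP36L1 binds AU-rich sequence in mRNAs and speeds their decay. The sources used here do not give age, sex, background strain or whether each library was a separate animal. The p-values therefore reflect only how far the 8 libraries scatter, which may be technical.

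Cytokine receptors work as combinations of chains, most of them bound to a Janus kinase (JAK), which phosphorylates STAT transcription factors when the ligand joins the chains. IL-4 and IL-21, made by helper T cells, bind IL-4Rα and IL-21R, and both of these use the common gamma chain encoded by Il2rg. IL-4 acts mainly through STAT6, raising CD23 and class switching to IgG1 and IgE, and IL-21 acts mainly through STAT3 to support germinal centre and plasma cell responses. IL-10 binds IL-10Rα with the accessory chain IL-10Rβ, IL-6 and IL-27 each use the shared chain gp130 encoded by Il6st, and the interferon receptors pair IFNGR1 with IFNGR2 and IFNAR1 with IFNAR2.

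Library totals ran from 38947758 to 51024233 counts. Zfp36l1 mRNA went against the label: it was lower in the labelled libraries, at 401.8 to 470.7 counts per 1000000 (CPM, on library sizes scaled by TMM factors) against 523.1 to 599.4 in the controls. The counts do not separate transcripts of the Rosa26 allele from those of the endogenous gene. At the locus that holds the allele, the transcript Gt(ROSA)26Sor differed between the labelled groups without overlap, at 3.17 to 4.46 CPM in the labelled libraries and 13.6 to 19.9 CPM in the controls (log2 fold change -2.11, adjusted p 4.14e-05 in edgeR). Directions below are those of libraries labelled GFP-ZFP36L1, called the labelled libraries, relative to controls. On the first principal component, which held 37.3% of the variance, labelled replicate 4 lay farthest out at 33.0, and labelled replicate 1, at -7.54, lay among the controls, which ran from -23.1 to -3.26. Within both groups, positions on this component followed the order of the numbers in the library titles, whose meaning the labels do not give. All 9 B cell markers were expressed, with a summed level of 16100 to 17300 CPM in the controls and 14000 to 16000 CPM in the labelled libraries. Markers of other cells were low beside these. The 3 plasma cell markers summed to 10.6 to 14.4 CPM, the 3 erythroid markers to 1.73 to 9.51 CPM and the 5 dendritic cell markers to 3.5 to 5.83 CPM over all libraries. The 5 NK cell markers summed to 2.12 to 3.83 CPM, with Prf1 at 1.77 to 3.36 CPM. The 7 T cell markers summed to at most 0.501 CPM, the 4 neutrophil markers to at most 0.0975 CPM and the 6 monocyte and macrophage markers to at most 5.25 CPM in any library.

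Il10ra was the only one of the 10 receptor genes that passed the test. Of the 10 genes, its 3' UTR was the one with a cluster of UAUUUAU, the core heptamer bound by ZFP36 proteins, searched here as TATTTAT on the sense strand. The stretch holding its 3 heptamers, and that holding the single heptamer of Ifngr2, are shown with the heptamers in capitals, because they are the only matches in the longest annotated 3' UTRs of the 10 genes.
Il10ra: tTATTTATTTATttgctcactTATTTATt
Ifngr2: aagtccggtttTATTTATggcctgggtgg
The Il10ra stretch of 29 bases is at chr9:45254113-45254141 (GRCm38, minus strand). Its heptamers fall between bases 1390 and 1416 of a 3' UTR of 1693 bases. The first and second heptamers share 3 bases, as their capitals run together. The Ifngr2 stretch is at chr16:91565179-91565207 on the plus strand, with the heptamer at bases 2185 to 2191 of a 3' UTR of 2618 bases. Among 10961 tested genes with an annotated 3' UTR, 29.7% held at least 1 heptamer and 3.9% held 3 or more. Of genes with a 3' UTR of 1500 to 2000 bases, the length class of Il10ra, 3.84% held 3 or more. The shorter AU-rich pentamer ATTTA, which lies within each heptamer, occurred 6 times in Ifngr2, 4 times in Il6ra, 3 times in Il10ra, 2 times in Il21r and 1 time in Ifnar1. No ATTTA was found in the longest annotated 3' UTR of Il4ra, Il2rg, Il27ra, Ifngr1 or Ifnar2, which were from 474 to 2420 bases long. A match is a run of letters in the annotation and not a measured binding site. Whether these matches have a part in the change of Il10ra was not tested. Tested genes with 3 or more heptamers had a median log2 fold change of 0.01, with 2.58% (11 of 427) called lower and 1.41% called higher. Those with no heptamer had a median of -0.01, with 1.26% called lower and 2.06% called higher. The median 3' UTR lengths of these sets differ, at 3265 and 854 bases, and the shares were not tested against each other.

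Il10ra encodes the ligand-binding chain of the IL-10 receptor, which signals through JAK1, TYK2 and STAT3. Il10ra (ENSMUSG00000032089, chromosome 9, 45253837 to 45269149, minus strand) had 377.9, 435.7, 393.1 and 411.1 CPM in control replicates 1 to 4 and 328.8, 305.1, 310.6 and 293.8 CPM in labelled replicates 1 to 4. Every labelled library lay below every control. Il10ra fell by 23.5%, from 404.4 ± 24.9 CPM to 309.6 ± 14.6 CPM (SD, n = 4 each), which is a log2 fold change of -0.39 ± 0.06 (SE; 95% interval -0.52 to -0.25). In edgeR's quasi-likelihood fit the p adjusted over all tested genes after Benjamini and Hochberg was 0.01, and genes with an adjusted p under 0.05 were called. Il10ra was thus 1 of 10 members called, against 407 of all 13035 genes, or 3.12%. Called lower were 1 of 10 members and 1.3% of all genes, and called higher were 0 of 10 members and 1.83% of all genes. The counts behind the level ran from 12060 to 21661 per library. Il10ra kept its call under all 17 alternative settings, including each library left out in turn, with adjusted p of at most 0.0457 and log2 fold changes from -0.42 to -0.35. In the authors' deposited table its log2 fold change was -0.36 with an adjusted p of 4.23e-07. That table compares the same groups and is not an independent test, and how its fold changes were estimated is not stated.

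The accessory chain was not called. Il10rb, which IL-10 receptors share with those for IL-22 and type III interferons, had 52.0 to 61.5 CPM in the controls and 48.4 to 58.8 CPM in the labelled ones. Its log2 fold change was -0.10 ± 0.08 (SE; 95% interval -0.26 to 0.07). On the scale of CPM per 1000 exon bases, control replicates 1 to 4 had a ratio of Il10ra to Il10rb of 6.69, 9.12, 7.31 and 8.50, and labelled replicates 1 to 4 had 6.09, 6.20, 6.99 and 6.52. Most labelled ratios lay below the controls, but labelled replicate 3 overlapped with control replicate 1. Macrophages also express Il10ra, and the 6 monocyte and macrophage markers summed to 2.53 to 3.64 CPM in the labelled libraries against 3.88 to 5.25 CPM in the controls. That difference came mostly from Adgre1, at 0.926 to 2.33 against 2.66 to 3.78 CPM, while the monocyte marker Cd14 stayed at or below 0.0716 CPM and the macrophage marker C1qa at or below 0.317 CPM. Of the 9 B cell markers, Pax5 and Ighd were called lower, at log2 fold changes of -0.22 and -0.33, and the summed markers of marginal zone B cells were 265 to 357 CPM against 213 to 267 CPM. Of these 4 markers, Myof was called higher, at 36.8 to 77.7 CPM against 19.15 to 25.03 CPM (log2 fold change 1.27, adjusted p 0.0254 in edgeR). Cd1d1, Dtx1 and S1pr3 were not called, at log2 fold changes of -0.06, 0.30 and 0.91, and their groups overlapped. The part of these markers in the fall of Il10ra was not tested, and in bulk RNA fewer cells of a type and less RNA per cell cannot be told apart.

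**Figure D1:**
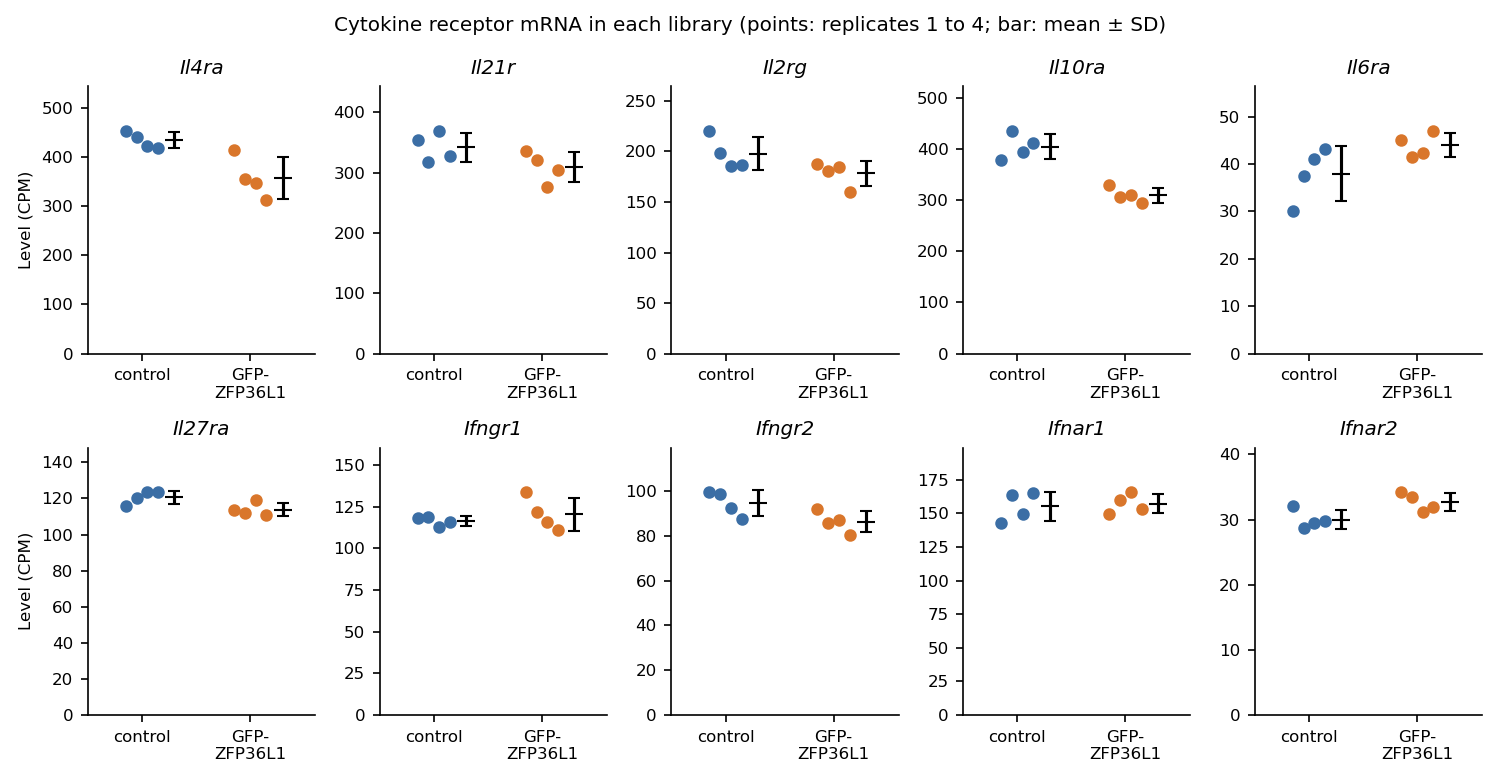
Level of each receptor gene in CPM (vertical axes from 0) in the 4 control (blue) and 4 GFP-ZFP36L1 (orange) libraries, points in order of replicate, with mean and SD as black bars. The groups are separate for Il10ra and Il4ra and overlap for the other 8 genes.

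Il4ra encodes the chain that binds IL-4 and, with IL-13Rα1, IL-13. Il4ra (ENSMUSG00000030748, chromosome 7, 125552120 to 125579474, plus strand) had 454.0, 440.6, 423.1 and 418.9 CPM in control replicates 1 to 4 and 414.7, 355.2, 347.3 and 313.4 CPM in labelled replicates 1 to 4. The groups did not overlap, but labelled replicate 1 came within a few CPM of the lowest control and the labelled libraries spread more widely than the controls. The log2 fold change was -0.28 ± 0.08 (SE; 95% interval -0.45 to -0.11) and the adjusted p in edgeR 0.087, so Il4ra was not called. Groups without overlap and lower in the labelled libraries were seen for 2 of 10 members, Il10ra and Il4ra, and for 4.98% of all tested genes. Il4ra was called under 5 of 17 alternatives: DESeq2, limma voom, no filter on low counts, a linear term for the number in each library's title, and without labelled replicate 1. Over all alternatives its adjusted p ran from 0.00937 to 0.209. In the authors' deposited table its adjusted p was 0.0202. The antisense gene Gm44876 overlaps 571 exon bases of Il4ra. The sources used here name no strand setting for the counting, and without strand the reads of both genes cannot be told apart.

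**Figure D2:**
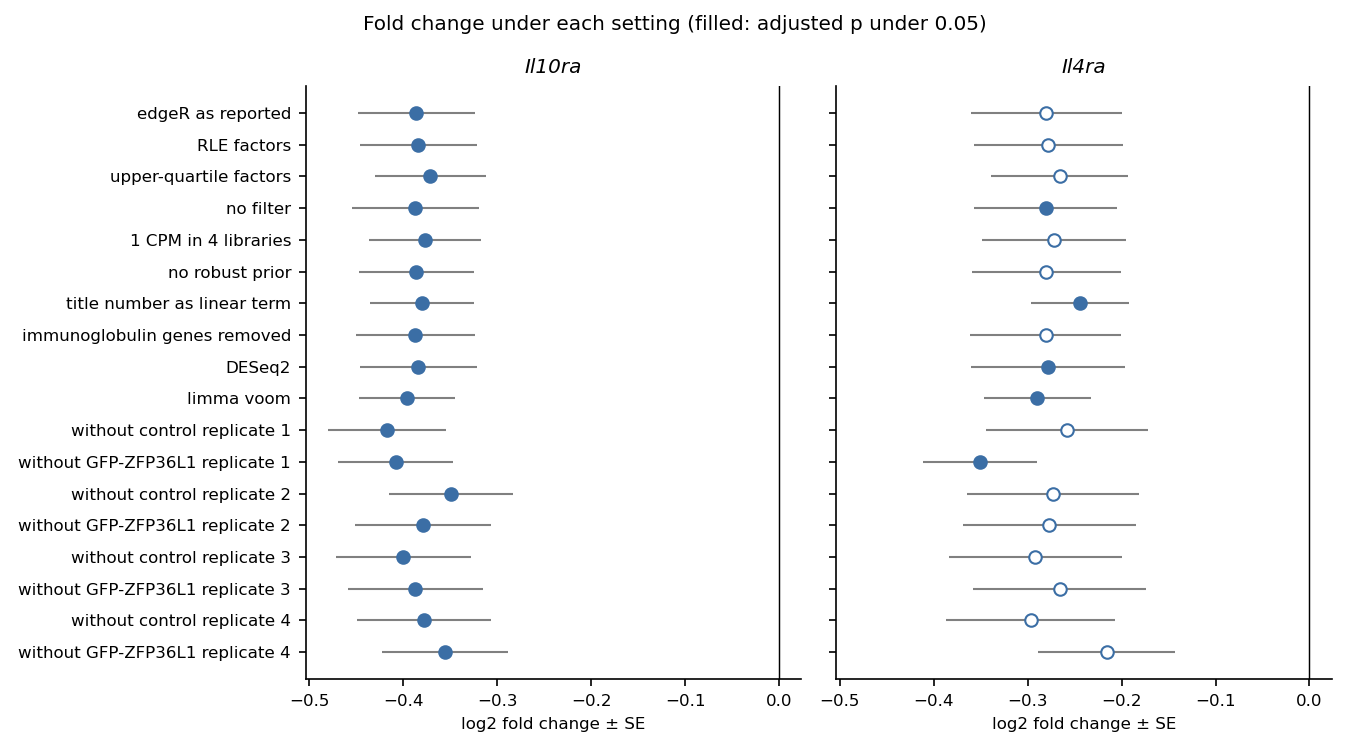
Log2 fold change (horizontal axis) with its standard error for Il10ra and Il4ra under edgeR as reported and 17 alternatives (rows). Filled points have an adjusted p under 0.05: all 18 for Il10ra and 5 for Il4ra, the latter without the value as reported.

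The gene for IL-21R adjoins Il4ra, 23954 bp further along chromosome 7 on the same strand. Il21r had 317.0 to 369.5 CPM in the controls and 276.0 to 335.8 CPM in the labelled libraries, which overlap. With a log2 fold change of -0.145 ± 0.07 (SE; 95% interval -0.305 to 0.015), Il21r was not called. Il2rg, the chain that both receptors share and that binds JAK3, had 185.7 to 220.7 CPM in the controls and 160.1 to 187.8 CPM in the labelled libraries, also overlapping. Its log2 fold change was -0.15 ± 0.07 (SE; 95% interval -0.303 to 0.003), not called. Gm20489, annotated over Il2rg on the same strand with 728 shared exon bases, had at most 1 count in any library. The sources used here do not say how reads in shared bases were assigned, so some Il2rg reads may be uncounted. Per-length values of Il2rg divide by all its exon bases and would then be too low. All 3 genes of the IL-4 and IL-21 receptors thus had negative values, and the direction of each held under all 17 alternatives, while Il21r and Il2rg were called under none of them. The smallest values were -0.093 for Il2rg in limma voom, with -0.094 without control replicate 1 and -0.097 without labelled replicate 4, and -0.094 for Il21r without labelled replicate 3. Il13ra1, the other partner of IL-4Rα, was barely detected, at 0.123 to 0.334 CPM in the controls and 0.246 to 0.438 CPM in the labelled libraries. Per length, the ratio of Il4ra to Il2rg was 0.818 to 0.906 in the controls and 0.747 to 0.878 in the labelled libraries, and that of Il21r to Il2rg was 1.15 to 1.43 against 1.07 to 1.37. Both ratios overlapped between the groups.

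Il6ra, the chain that binds IL-6, had the largest positive value in edgeR as reported. Il6ra had 30.2, 37.5, 41.1 and 43.3 CPM in control replicates 1 to 4 and 45.2, 41.5, 42.3 and 47.1 CPM in labelled replicates 1 to 4. The labelled libraries sat at the upper end of a wider range of controls, in which control replicate 1 was lowest. The log2 fold change was 0.21 ± 0.10 (SE; 95% interval -0.001 to 0.424), the adjusted p in edgeR was 0.289, and none of the 17 alternatives called Il6ra. Without control replicate 1 the log2 fold change was 0.116, below that of Ifnar2 at 0.157, and in limma voom these were 0.125 and 0.126. The antisense gene Gm42809 overlaps 242 exon bases of Il6ra. Il27ra, the chain that binds IL-27, had 115.7 to 123.5 CPM in the controls and 110.6 to 118.9 CPM in the labelled libraries, with a log2 fold change of -0.08 ± 0.05 (SE). Il6st, whose product gp130 completes both receptors, had 25.8 to 31.6 CPM against 27.4 to 36.1 CPM in the labelled ones, with a log2 fold change of 0.13 ± 0.09 (SE). Neither was called, and the 95% interval of Il27ra ran from -0.19 to 0.02. Per length, Il27ra exceeded Il6st by 12.4 to 14.5 times in the controls and by 9.74 to 13.2 times in the labelled libraries, and Il6ra exceeded Il6st by 1.5 to 1.84 and 1.68 to 2.12 times.

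The receptor for interferon gamma, which signals through JAK1 and JAK2, had no called chain. Ifngr1, encoding the ligand-binding chain, had 118.1, 119.0, 112.5 and 115.8 CPM in control replicates 1 to 4 and 133.7, 121.8, 115.8 and 110.7 CPM in labelled replicates 1 to 4. Ifngr2, encoding the chain that brings JAK2, had 99.6, 98.9, 92.6 and 87.6 CPM in control replicates 1 to 4 and 92.2, 85.9, 87.0 and 80.5 CPM in labelled replicates 1 to 4. In both genes the groups overlapped, and in the labelled libraries replicate 1 was highest and replicate 4 lowest for each. The log2 fold changes were 0.05 ± 0.06 for Ifngr1 and -0.13 ± 0.06 for Ifngr2 (SE), and neither was called, with 95% intervals of -0.08 to 0.18 and -0.26 to -0.01. The value of Ifngr1 was 0.005 without labelled replicate 1 and 0.094 without labelled replicate 4. Control replicates 1 to 4 had a per-length ratio of Ifngr1 to Ifngr2 of 1.57, 1.59, 1.61 and 1.75, and labelled replicates 1 to 4 had 1.92, 1.88, 1.76 and 1.82. This was the 1 ratio of 7 compared in which the groups did not overlap, by a margin of the last digit given, and no test was run on it.

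The receptor for type I interferons had no called chain. Ifnar1, encoding the chain that binds TYK2, had 142.7 to 165.4 CPM in the controls and 149.5 to 165.8 CPM in the labelled libraries. Its log2 fold change was 0.02 ± 0.06 (SE; 95% interval -0.11 to 0.15), the smallest in size of the 10 members, and its sign turned when control replicate 1 or 3 or labelled replicate 3 was left out, at -0.02, -0.001 and -0.01. Ifnar2, encoding the chain that binds JAK1, had 28.8 to 32.1 CPM in the controls and 31.1 to 34.2 CPM in the labelled libraries, which overlap narrowly. Its log2 fold change was 0.12 ± 0.06 (SE; 95% interval -0.002 to 0.249), not called. Gm21970 shares 315 exon bases with Ifnar2 on the same strand and was listed at 0 in every library. As for Il2rg, the assignment of reads in shared bases is not stated, and the per-length level of Ifnar2 may be too low. The ratio of Ifnar1 to Ifnar2 per length was 2.49 to 3.18 in the controls and 2.45 to 2.99 in the labelled libraries, so these overlapped as well.

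Ifnar2, Il10rb, Ifnar1 and Ifngr2 lie in this order within 192841 bp of chromosome 16, all on the plus strand. Il10rb begins 574 bp after Ifnar2 ends, Ifnar1 follows after 59403 bp and Ifngr2 after another 39630 bp. Along the cluster the log2 fold changes were 0.12, -0.10, 0.02 and -0.13, so these neighbours had values of both signs and none was called. In total 6 of the 10 members had a negative log2 fold change, against 52.1% of all tested genes, and the median was -0.11, against -0.01 over all tested genes. An unadjusted p under 0.05 was found for 3 members, Il10ra, Il4ra and Ifngr2, and for 17.3% of all tested genes.

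**Figure D3:**
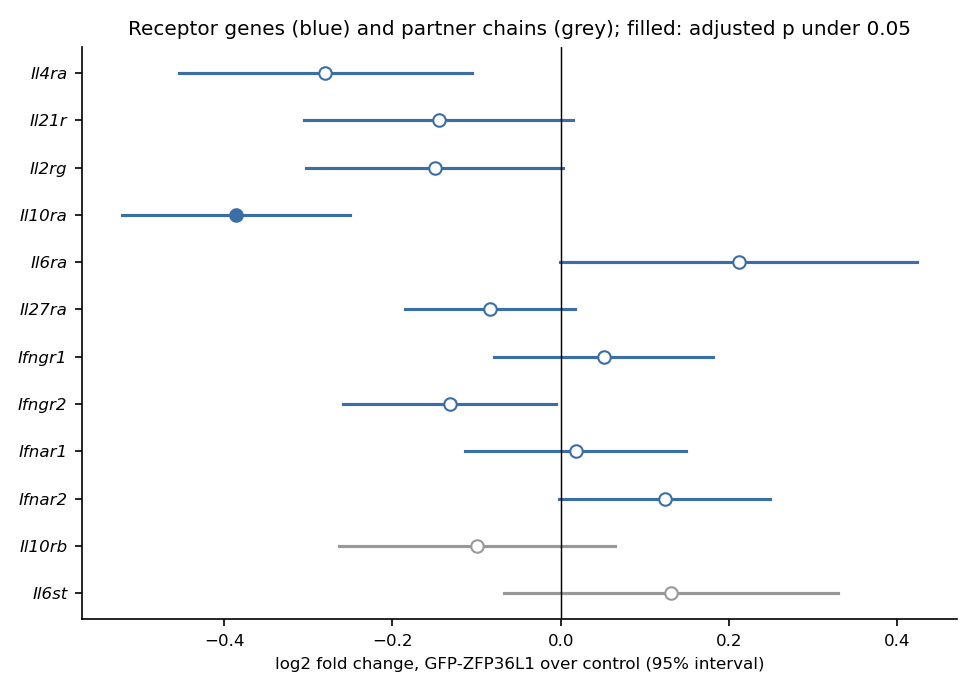
Log2 fold change (horizontal axis) with its 95% interval for the 10 receptor genes (blue) and the partner chains Il10rb and Il6st (grey). The filled point is Il10ra at -0.39, the only one called, and the members run up to 0.21 for Il6ra.

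The 10 genes covered a wide range of expression. In CPM per 1000 exon bases, a scale that allows levels of genes to be set against each other, Il10ra led the controls at 115.6 ± 7.11 (SD, n = 4). Il21r followed at 102.9 ± 7.19, Il2rg at 82.9 ± 6.80 and Il4ra at 72.3 ± 2.71. Ifngr1 at 40.9 ± 1.01, Il27ra at 34.5 ± 1.04, Ifnar1 at 26.1 ± 1.86 and Ifngr2 at 25.1 ± 1.51 formed a middle group. Ifnar2 at 9.01 ± 0.431 and Il6ra at 4.399 ± 0.665 were lowest. Among neighbours in this order, the control libraries of Il10ra and Il21r overlapped, as did those of Ifnar1 and Ifngr2, and all others were separate. In the labelled libraries Il10ra, at 88.5 ± 4.17, came after Il21r, at 93.1 ± 7.68, again with overlapping libraries. The order depends on the length used: with the longest transcript in place of all exons, the controls gave Il21r 137, Il2rg 119, Il10ra 116 and Il4ra 82.6. It may also depend on how reads were assigned in exon bases that Il2rg and Ifnar2 share with other genes, which is not stated.

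**Figure D4:**
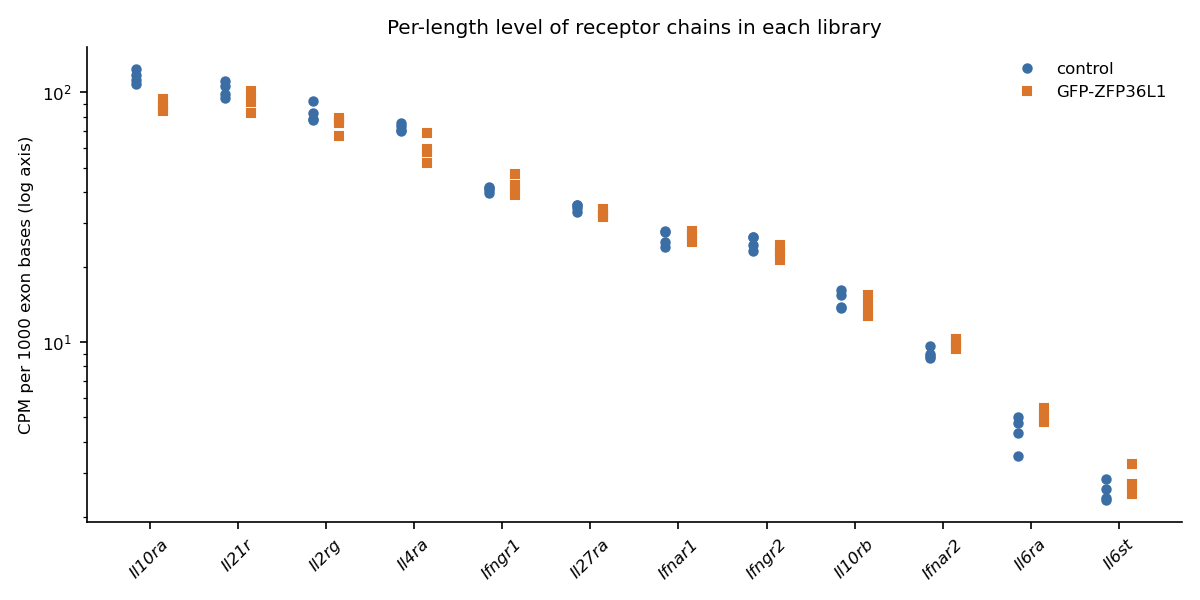
Level in CPM per 1000 exon bases (log axis) of the receptor genes and 2 partner chains in each control (blue circles) and GFP-ZFP36L1 (orange squares) library. Controls run from 115.6 on average for Il10ra to 4.399 for Il6ra among the members.

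By a fixed rule, the genes whose library profile was most like that of Il10ra, as the mean absolute difference in centred log2 CPM over the 8 libraries, were Cd55, Strn4 and Kmo, at 0.053, 0.053 and 0.054 among 8820 genes compared. Cd55, a complement regulator, had 515.2 to 646.1 CPM in the labelled libraries and 765.1 to 860.2 CPM in the controls. Strn4, a subunit of a phosphatase complex, had 101.9 to 116.5 against 136.6 to 141.1 CPM, and Kmo, an enzyme of tryptophan breakdown, 152.1 to 172.4 against 194.9 to 233.4 CPM. The measure runs over all 8 libraries and so includes the difference between the groups.

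The other chains and signalling genes of the receptors were described from 8 lists, chosen with earlier results of these data known. Of their 115 tested genes 8 were called, or 6.96%, against 3.12% of all tested genes. With 1 library left out, 1 to 26 genes of the lists were called. In the list of other cytokine receptor chains, 22 of 49 genes passed the filter on low counts, 1 was called higher and 1 lower, and the median log2 fold change was 0.02. Il3ra, the chain that binds IL-3, rose from 5.63 to 6.66 CPM across the controls to 7.51, 9.10, 9.55 and 8.89 CPM in labelled replicates 1 to 4. Il5ra, the chain that binds IL-5, fell, with 25.5, 34.3, 34.7 and 34.1 CPM in control replicates 1 to 4 and 24.9, 23.6, 24.7 and 21.2 CPM in labelled replicates 1 to 4. The groups did not overlap in either gene. The log2 fold changes were 0.55 ± 0.10 and -0.45 ± 0.10 (SE), and the adjusted p in edgeR were 0.0177 and 0.0354. Both chains signal with the beta chain encoded by Csf2rb, which, named after its values were seen, had 12.8 to 16.7 CPM in the controls and 16.4 to 31.6 CPM in the labelled libraries and was not called (adjusted p 0.0604 in the same edgeR test). Without control replicate 2 or 3 or labelled replicate 2 or 3 the calls of Il3ra and Il5ra were lost, and that of Il5ra also without replicate 4 of either group, at adjusted p of up to 0.0691 for Il3ra and 0.122 for Il5ra in the same edgeR test.

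No gene of the signalling core was called. Of 12 genes for Janus kinases, STATs and Irf9, 0 were called by edgeR's quasi-likelihood test, 1 had an unadjusted p under 0.05 (17.3% of all tested genes did), and the median log2 fold change was -0.01. Stat4, which had the smallest p of the list, had 49.7 to 59.0 CPM in the controls and 37.3 to 50.0 CPM in the labelled libraries, and limma voom called it. Jak3, the kinase of the common gamma chain, had 120.8 to 141.1 against 119.7 to 197.4 CPM, the upper value being labelled replicate 4. Among 19 negative regulators, Socs5, a suppressor of cytokine signalling, was called higher, at 47.3, 47.5, 47.9 and 47.6 CPM in labelled replicates 1 to 4 against 42.4, 42.2, 38.2 and 41.0 CPM in control replicates 1 to 4. The log2 fold change of Socs5 was 0.22 ± 0.05 (SE) and its adjusted p in edgeR 0.0405. This call was lost with no filter on low counts or when any library other than labelled replicate 1 was left out, at adjusted p of up to 0.145. The other 18 were not called in edgeR as reported, and the list's median was 0.00. DESeq2 called 1 gene of the list higher and 2 lower, and limma voom 2 higher and 1 lower. Of 15 ligand genes 13 fell below the filter, and the remaining Il15 and Ebi3 were not called in edgeR as reported, at 1.35 against 0.865 CPM on average and 13.9 to 16.7 against 11.8 to 14.1 CPM. Il15 was called higher by limma voom and without labelled replicate 1, and Ebi3 with a title-number term.

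Among response genes, 3 of 24 for type I interferon were called higher, against 1.83% of all tested genes. Called lower were 1 of 12 for STAT3 and 1 of 19 for interferon gamma, against 1.3% of all tested genes. In the list for STAT6, downstream of IL-4, 0 of 12 tested genes (of 15 listed) were called by edgeR's quasi-likelihood test. An unadjusted p under 0.05 was found for 3, a count to set beside 17.3% of all tested genes. The median log2 fold change was 0.16, with 7 genes positive and 5 negative, and 0.01 with the filter of 1 CPM in 4 libraries. Fcer2a, the gene for CD23, had 1388 to 1555 CPM in the controls and 1114 to 1358 CPM in the labelled libraries. It was called lower by DESeq2, by limma voom, with a title-number term and without labelled replicate 1. The cells were sorted on CD23 and only the labelled libraries carried CD23cre/+. Effects of these on Fcer2a cannot be told apart from a STAT6 response. Cish, encoding a negative regulator in the SOCS family, was at 0.101 to 0.221 CPM in the controls and 0.288 to 0.585 CPM in the labelled libraries, and limma voom called it higher (adjusted p 0.0339). In the list for STAT3, downstream of IL-10, IL-21 and IL-6, Pim1, a kinase gene, was lower and the other 11 of 12 genes were not called, with a median of -0.02, which was 0.05 with a title-number term or limma voom. Pim1 had 53.5, 54.8, 60.3 and 60.0 CPM in control replicates 1 to 4 and 46.6, 37.3, 50.0 and 41.1 CPM in labelled replicates 1 to 4, which did not overlap. The log2 fold change of Pim1 was -0.39 ± 0.09 (SE) and its adjusted p in edgeR 0.0369, and the call was lost without any 1 of control replicates 2, 3 and 4 and labelled replicates 2 and 4, at up to 0.124.

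Of 24 genes of the type I interferon response, 3 were called higher and 0 lower. All 24 had a positive log2 fold change, and the median was 0.52, beside Ifnar1 at 0.02 and Ifnar2 at 0.12. Every labelled library lay above every control only in Irf7, Isg15, Ifit1, Oasl1, Bst2, Rtp4 and Ifih1. In the other genes the groups overlapped. In Mx1, Usp18, Oas1a, Xaf1 and Ddx58, labelled replicate 1 lay below every control, for Mx1 at 14.9 against 15.92 to 26.17 CPM. The positive signs thus do not mean a rise in every labelled library, and they may not be independent of each other. Of all tested genes 1.83% were called higher and 52.1% had a negative log2 fold change. The list was chosen with earlier results of these data known. With a title-number term, with limma voom or without labelled replicate 4, 23 of the 24 were positive. Called higher were 10 with DESeq2, 11 with limma voom, 14 without labelled replicate 1, and 0 in edgeR without control replicate 2, 3 or 4 or labelled replicate 2. Irf7, the interferon regulatory factor induced by the pathway, had 63.3, 93.8, 73.0 and 95.4 CPM in labelled replicates 1 to 4 against 50.0 to 57.1 CPM in the controls. Rtp4 and Ifit1 had 20.9 to 29.6 against 16.6 to 19.3 CPM and 7.32 to 13.9 against 4.20 to 6.59 CPM. In all 3 genes labelled replicate 1 was the lowest of its group and lay closest to the controls. The calls were lost when control replicate 1, 2, 3 or 4 or labelled replicate 2 was left out, those of Rtp4 and Ifit1 also without labelled replicate 3, that of Ifit1 without labelled replicate 4, and those of Irf7 and Ifit1 with no filter or a title-number term. The highest adjusted p in edgeR were 0.0817 for Irf7, 0.0887 for Rtp4 and 0.121 for Ifit1. In the list for interferon gamma, 19 of the 21 genes were tested, 1 was called lower, and the median was 0.00. That gene, Gbp3, a guanylate-binding protein, had 76.0 to 84.2 CPM in the controls and 56.2 to 66.8 CPM in the labelled libraries, and its call held under all 17 alternatives.

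**Figure D5:**
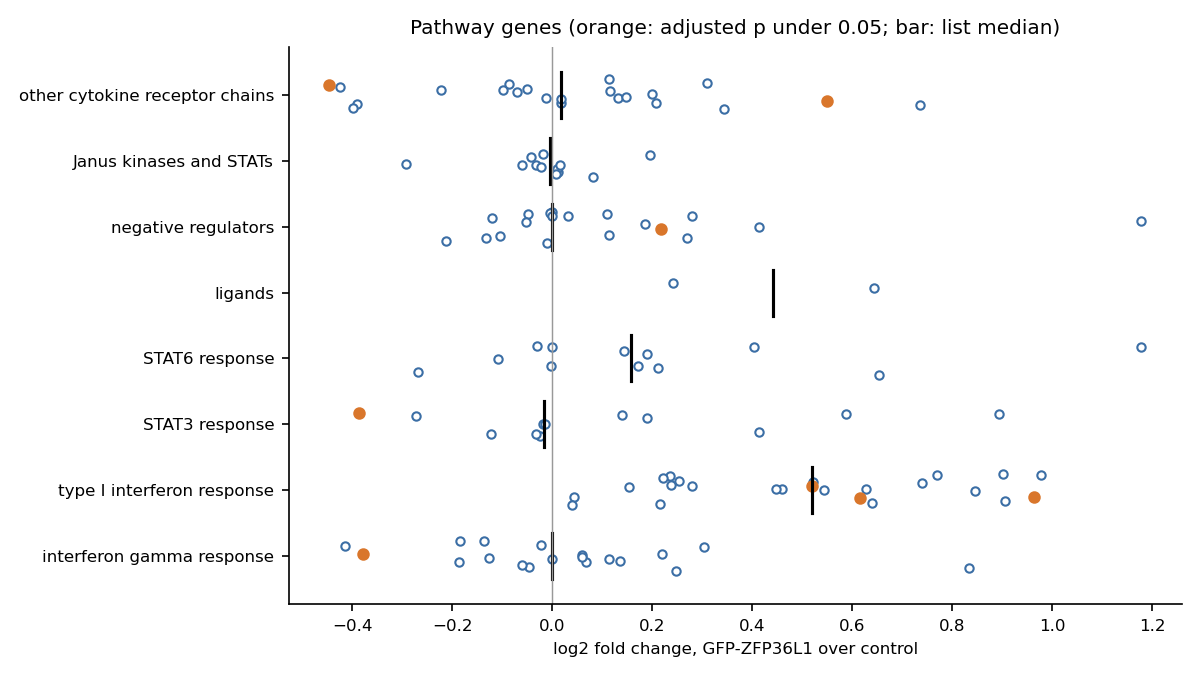
Log2 fold change (horizontal axis) of each tested gene in 8 lists of pathway genes, with the list median as a black bar and called genes in orange. The list medians run from -0.02 for the STAT3 response to 0.52 for the type I interferon response, in which all 24 genes lie above 0 in edgeR as reported (23 of 24 with limma voom or a title-number term).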

How the data were processed

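Raw counts per Ensembl gene, as deposited, were used for all tests, beside a comparison table whose mean signal, log2 fold changes and p-values were used as deposited for the named genes only. A deposited table of normalized values was not used. The submitters' processing notes name GRCm38, HTSeq, DESeq2 1.10.1, TopHat2 2.0.12 and Trim Galore, without settings. All 8 count columns were matched to libraries by sample title. Replicates were numbered in accession order and pair nothing.

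GENCODE mouse release 21 (GRCm38) and a list of gene names gave symbols for 42462 of 43629 identifiers, exon lengths and the longest 3' UTR after a stop codon. Counts were fitted in R 4.3.3 with edgeR 4.0.16 (filterByExpr, TMM, robust quasi-likelihood test, Benjamini-Hochberg adjustment over all genes). The same fit was run on simulated counts, with an outcome that is not reported here. That simulation held no trend over the title numbers and so does not cover one. Alternatives were DESeq2 1.42.0, voom with quality weights in limma 3.58.1, RLE and upper-quartile factors, no filter, 1 CPM in 4 libraries, no robust prior, a linear term for the number in each library's title, removal of immunoglobulin genes, and each library left out. Motifs in proteins were not analysed here.

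The members and lists were chosen with earlier results of these data known. Named genes are the members, the partner chains Il10rb, Il6st and Il13ra1, up to 4 called genes per list by smallest p or, with none called, the 2 smallest p, the 3 genes most like the member with the smallest p (mean of at least 5 CPM, no predicted, RIKEN, pseudogene or immunoglobulin entries), and genes overlapping or adjoining a member. Gbp5 had no single entry in the table.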

Additional observations from a re-analysis of the deposited data

Results flagged for a closer look

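Il13ra1, the partner of IL-4Rα in the type II receptor, had 0.123 CPM in control replicate 4, while the other 3 controls lay between 0.309 and 0.334 CPM. The gap to the nearest control was 0.882 of the whole range of that group, above Dixon's critical value for 4 samples. The counts were 14, 16, 13 and 5 in control replicates 1 to 4. Of 40 groups examined, covering the levels of 13 genes and 7 ratios, this was the 1 that stood out, where chance gives about 1 in 20.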

How the results depend on the processing

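The call of Il10ra and the directions of all members except Ifnar1 held under every one of the 17 alternatives. The number of called members was 2 rather than 1 with no filter, a linear term for the title number, DESeq2 and limma voom, and ran from 1 to 2 with 1 library left out, the added gene being Il4ra. Its log2 fold changes were then -0.281, -0.244, -0.278 and -0.29, and from -0.351 to -0.216 with 1 library left out. The log2 fold change of Ifnar1 ran from -0.021 to 0.049 with 1 library left out, and its sign is not settled. All called genes numbered 1030 with the title number, 895 with DESeq2, 1053 with limma voom and 79 to 948 with 1 library left out (fewest without control replicate 3), against 407. Called genes of the pathway lists numbered 13, 21 and 27 under the same 3 alternatives and 1 to 26 with 1 library left out, against 8. The lowest counts of pathway genes, 1 each, came without control replicate 2 or 3 or labelled replicate 2, and the highest without labelled replicate 1. With the longest transcript as length, the control ratios were 0.699 for Il4ra to Il2rg, 5.79 for Il10ra to Il10rb, 1.36 for Il6ra to Il6st, 2.16 for Ifngr1 to Ifngr2 and 4.05 for Ifnar1 to Ifnar2, each changed by 1 factor for all libraries. Beyond these constructions the cause was not tested. With 4 libraries a group, the spread between libraries limits the precision. Each member had at least 1212 counts per library, and the share of counting error in that spread was not estimated. No paired analysis was run, because the labels give no number shared between the groups. The title numbers alternate between control and labelled libraries, and the labels do not say whether neighbouring numbers form pairs.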

Other observations

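Among receptor chains not described above, and named after their values were seen, Il17ra, the main chain of the IL-17 receptors, had 288.8, 278.1, 283.0 and 285.0 CPM in control replicates 1 to 4 and 256.0, 253.0, 236.6 and 227.5 CPM in labelled replicates 1 to 4. The groups did not overlap, and the adjusted p in edgeR was 0.0506 at a log2 fold change of -0.22 ± 0.05 (SE). Il9r, the receptor for IL-9, varied within the groups, at 129.9, 143.4, 210.3 and 198.6 CPM in control replicates 1 to 4 and 125.7, 92.2, 122.7 and 179.9 CPM in labelled replicates 1 to 4, and was not called (log2 fold change -0.39 ± 0.23, SE).

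Of the 427 tested genes with 3 or more heptamers in the 3' UTR, 11 were called lower, or 2.58%, and 6 higher, or 1.41%, with a median log2 fold change of 0.01. Of the 7707 tested genes with no heptamer, 1.26% were called lower and 2.06% higher, with a median of -0.01. These genes differ in 3' UTR length, with medians of 3265 and 854 bases, and the shares were not tested against each other.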
